A study of Mus musculus with 34 samples.

Results

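The genes of renal glucose production and fructose use examined here were *Pcx*, *Pck1*, *Pck2*, *Fbp1*, *G6pc*, *Slc37a4* and *Khk*, 7 genes of the 23509 in each count table, chosen by name for their place in these routes. All 7 were among the 15644 genes with enough counts to be tested. Polyadenylated kidney RNA was sequenced from 34 C57BL6 mice killed on postnatal day 28 (P28). *Pkd2*-KO mice, in which Cre recombinase driven by *Pkhd1* removes both floxed *Pkd2* alleles (Pkhd1/cre; *Pkd2* F/F), received RGLS4326 at 20 mg per kg (n = 11) or the vehicle PBS (n = 11) under the skin on P10, P11, P12 and P19, and untreated non-transgenic mice of the same strain and age (UNT, n = 12) were the controls. The sample labels spell the genotype "Pdk2KO", while the treatment description and the study's methods name *Pkd2*. The labels give 11 PBS libraries, while the study states fewer PBS-treated *Pkd2*-KO mice for its sequencing. The *Pkhd1*-driven Cre acts mainly in the collecting duct and neighbouring tubule segments, whereas renal gluconeogenesis is known as a function of the proximal tubule, and neither the cells with the deletion nor the cells that supplied these transcripts were measured. Because PBS and UNT mice differ in genotype as well as in injections, the disease comparison carries both.

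Gluconeogenesis is the synthesis of glucose from lactate, glycerol, glutamine and other precursors, and the proximal tubule is the place outside the liver where it is most active. Pyruvate carboxylase (*Pcx*) makes oxaloacetate from pyruvate in mitochondria, and the phosphoenolpyruvate carboxykinases convert oxaloacetate to phosphoenolpyruvate in the cytosol (*Pck1*) or in mitochondria (*Pck2*). Fructose bisphosphatase (*Fbp1*) removes a phosphate further along the route, and the catalytic subunit of glucose-6-phosphatase (*G6pc*), fed by the glucose-6-phosphate transporter *Slc37a4*, releases free glucose. Ketohexokinase (*Khk*) phosphorylates fructose, which enters the same pool of triose phosphates. *Pck1* and *G6pc* are known as genes whose transcription follows fasting, acid load, glucocorticoids and insulin, while *Pck2* is known as a target of the amino acid stress response.

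RGLS4326 is an oligonucleotide that binds the seed of the microRNA miR-17, the stretch of bases 2 to 8 with which a microRNA recognises its targets. The mature sequences of miR-17-5p and of miR-20a-5p and miR-93-5p, relatives made from other precursors, are shown because their seed, in capitals, is the same (RefSeq, GRCm38.p6).
miR-17-5p: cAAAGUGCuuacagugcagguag
miR-20a-5p: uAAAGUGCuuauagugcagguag
miR-93-5p: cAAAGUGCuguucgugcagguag
Among the 7 genes, only the longest annotated 3′UTR of *G6pc* (GENCODE M21) held a match of 7 or more bases to this seed. The site, a match to bases 2 to 8, lies at chr11:101377832-101377838 on the plus strand of GRCm38 and begins at base 1036 of a 3′UTR of 1107 bases. The surrounding bases are shown with the match in capitals.
G6pc site: acccacaccaaGCACTTTgtttctaatatc
Such a match was present in 21.2% of the 14218 tested genes with an annotated 3′UTR, so 1 gene of 7 was near the share of all genes. The search was of letters only and says nothing of binding.

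Libraries held 17603122 to 54981992 reads in genes, and the lowest count of any of the 7 genes in any library was 559 (*Pck2*), so differences between mice rather than counting error set the precision. Levels are given as CPM, the counts scaled to library size after TMM scaling. The deleted gene *Pkd2* stood at 274 ± 34.4 CPM (SD, n = 12) in UNT and at 160 ± 32.2 CPM (n = 11) under PBS (log2 difference -0.78, adjusted p = 1.4e-09), and its ranges in these groups did not overlap. Under RGLS4326, with the same deletion, it stood at 210 ± 23.8 CPM (n = 11, log2 difference from UNT -0.39, adjusted p = 0.000267) and its range overlapped that of UNT. Reads that fell in no gene were 9.84% to 11.3% of the reads in UNT, 5.18% to 9.0% in PBS and 4.94% to 12.0% in RGLS4326 libraries. Reads without a unique alignment were 22.8% to 25.7% in UNT, 14.8% to 19.4% in PBS and 14.8% to 19.1% in RGLS4326 libraries, so this share moved with the disease. The names of the deposited tables carry a sample number that restarts, which divides the libraries into 3 numbering series with 3 or 4 mice of every group in each, and values within these series are given beside the pooled ones. Adjusted p of a gene is the Benjamini-Hochberg value of the edgeR quasi-likelihood test over all genes tested, and a gene was called at an adjusted p under 0.05. For the *Pck1* to *Pck2* ratio it is the Benjamini-Hochberg value of permutation tests over 3 comparisons.

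In PBS-treated *Pkd2*-KO kidneys, *Pcx*, *Pck1*, *Fbp1*, *G6pc*, *Slc37a4* and *Khk* fell 4.76-fold to 9.72-fold below UNT, and *Pck2* rose 1.60-fold. All 7 were called, 6 lower and 1 higher, where 82.1% of all tested genes were called in this comparison (39.0% lower and 43.1% higher). None of the 7 overlapped between the groups, against 19.8% of tested genes that were lower and 22.7% that were higher without overlap. Their median log2 fold change was -2.39, beside 0.04 over all tested genes. The size of the falls placed these genes at the far end of the distribution, with 105 genes below *G6pc*, 115 below *Pck1* and 438 below *Pcx*, the member with the smallest fall, of 15644. In bulk tissue, a smaller number of cells of a type and less RNA in each such cell cannot be told apart.

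**Figure D1:**
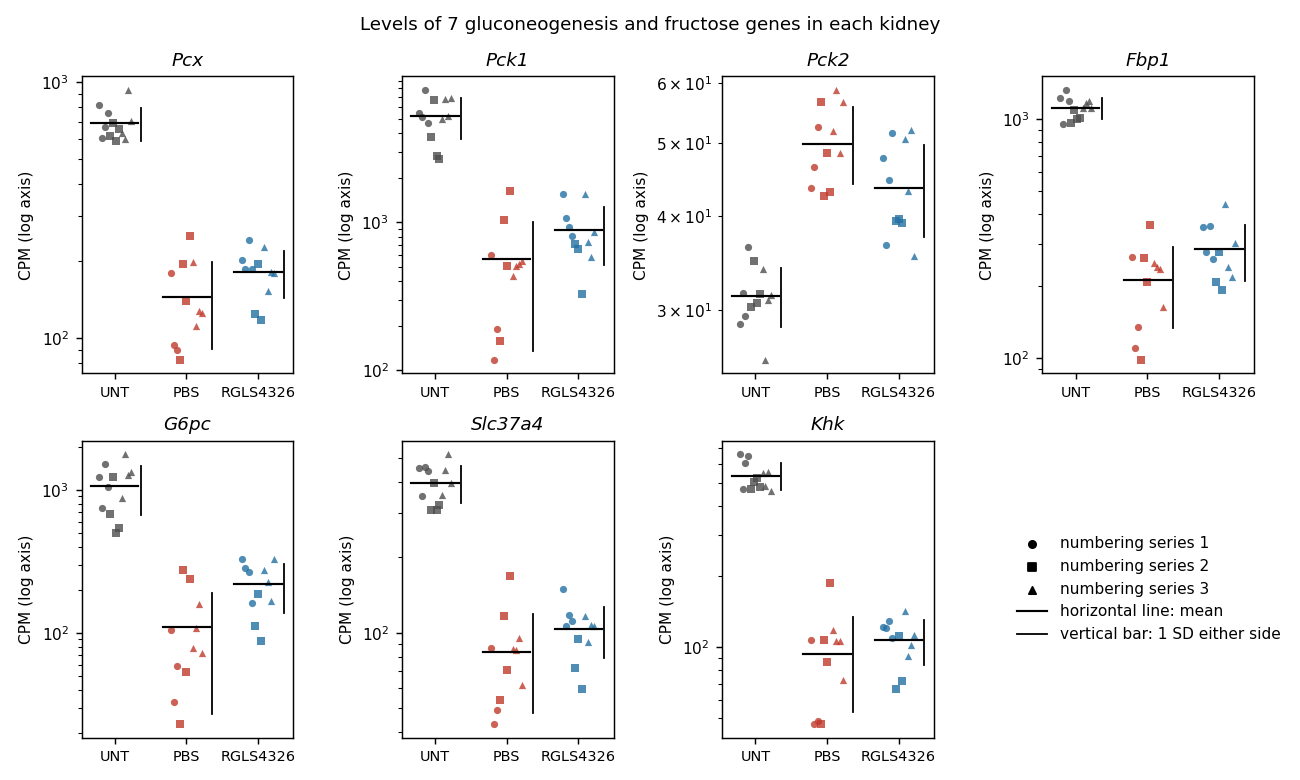
Level of each gene in every kidney, in CPM on a log axis, for UNT (n = 12), PBS (n = 11) and RGLS4326 (n = 11), with the numbering series as the shape of the point, the mean as a horizontal line and 1 SD either side as a vertical bar. *Pck2* is higher and the other 6 genes are lower in both *Pkd2*-KO groups, and the PBS group of *Pck1* spreads from 118 to 1616 CPM.

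*Pck1* (ENSMUSG00000027513.11, chromosome 2, 173153048 to 173159273, plus strand, GRCm38) had the highest level of the 7 genes. UNT kidneys ran from 2690 to 7804 CPM with a median of 5164, PBS-treated kidneys from 118 to 1616 CPM with a median of 507, and RGLS4326-treated kidneys from 329 to 1547 CPM with a median of 804. Every *Pkd2*-KO mouse was below every UNT mouse, and both *Pkd2*-KO groups overlapped, with 3 of 11 PBS mice below the lowest RGLS4326 mouse. The log2 fold change of PBS against UNT was -3.21 (SE 0.33, adjusted p = 5.54e-11), a 9.24-fold lower level. *Pck1* was also the most variable member within the PBS group, in which the highest mouse was 13.7 times the lowest and the coefficient of variation was 76.1%, beside 30.9% in UNT.

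The promoter of *Pck1* is known for a cAMP response element through which fasting hormones act. Of the 7 genes, all with an entry in the RefSeq promoter table (250 bases before to 50 after each start, GRCm38.p6), only *Pck1* held a match to the variant TTACGTCA on either strand, at chr2:173152980-173152987, with its first base at position -93 from the start in the RefSeq table, which lies downstream of the GENCODE start given above. The match is shown in capitals within its surroundings on the strand of the gene.
Pck1 promoter: ggcctgccccTTACGTCAgaggcgagcctc
This motif occurred in 0.499% of 32851 promoters. No member held the full palindrome TGACGTCA (1.79% of promoters), the Hnf4a motif CAAAGTCCA (0.475%), the glucocorticoid receptor motif (0.475%), the direct repeat of nuclear receptor half-sites (0.0396%) or the Hnf1 motif (0.00913%). These are descriptions of the letters in this window and draw nothing about the factors.

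*Pck2* (ENSMUSG00000040618.7, chromosome 14, 55540266 to 55551242, plus strand) moved in the opposite direction to its cytosolic counterpart. UNT kidneys ran from 25.7 to 36.3 CPM, PBS-treated kidneys from 42.4 to 58.8 CPM and RGLS4326-treated kidneys from 35.4 to 52.0 CPM, with means of 31.3 ± 2.82, 49.9 ± 5.84 and 43.6 ± 6.07. All 11 PBS mice were above all 12 UNT mice, and 10 of 11 RGLS4326 mice were. Its log2 fold change in disease was 0.67 (SE 0.07, adjusted p = 6.51e-11). With the percentage of reads outside genes as a covariate it was 0.41 (adjusted p = 6.82e-05), and with the percentage of reads lacking a unique alignment it was 0.37 and no longer called (adjusted p = 0.0541). In the latter fit 46.9% of all tested genes were called, and its covariate did not overlap between PBS and UNT. *Pck2* shares 53 exon bases with the antisense transcript Gm10876 in the annotation, so a part of its counts could stem from the other strand if strand was not used in counting.

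Because both isozymes make the same product, their ratio was taken within each mouse. The log2 ratio of *Pck1* to *Pck2*, on log2(CPM + 1), was 7.28 ± 0.53 in UNT, 3.12 ± 1.21 in PBS and 4.21 ± 0.61 in RGLS4326 kidneys. PBS mice were lower than UNT mice by a mean of -4.16 without overlap (two-sided permutation test, p = 2e-05, the smallest that 100000 resamples can give, adjusted p = 3e-05 over 3 comparisons). Within numbering series 1, 2 and 3 this difference was -5.14, -3.17 and -4.36.

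**Figure D2:**
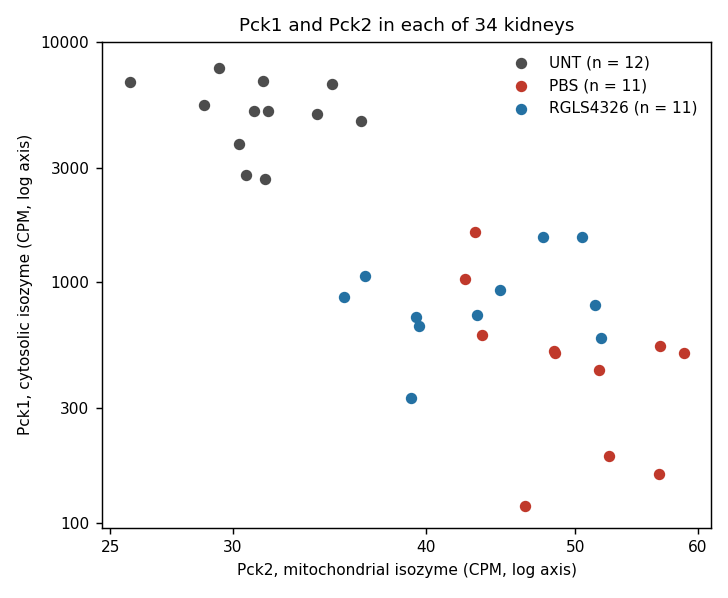
*Pck1* against *Pck2* in each of 34 kidneys, both in CPM on log axes, colored by group. UNT mice lie at the upper left, at or above 2690 CPM for *Pck1* and at or below 36.3 CPM for *Pck2*, and all *Pkd2*-KO mice lie below them. To the right of every UNT mouse lie all 11 PBS mice and 10 of 11 RGLS4326 mice.

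*Pcx* (ENSMUSG00000024892.17, chromosome 19, 4510472 to 4621752, plus strand) ran from 589 to 933 CPM (median 665) in UNT, from 82.3 to 250.9 CPM (median 128) in PBS and from 118 to 241 CPM (median 186) in RGLS4326 kidneys. Its log2 fold change in disease was -2.25 (SE 0.16, adjusted p = 1.5e-15). *Pcx* is the step before both carboxykinases, and it fell with *Pck1*, not with *Pck2*.

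*Fbp1* (ENSMUSG00000069805.10, chromosome 13, 62864753 to 62888282, minus strand) varied least between healthy mice among the 6 genes that fell. It ran from 956 to 1324 CPM in UNT with a coefficient of variation of 10.3%, from 97.9 to 360 CPM in PBS and from 193 to 443 CPM in RGLS4326 kidneys, with medians of 1112, 236 and 276. The log2 fold change in disease was -2.39 (SE 0.17, adjusted p = 2.06e-15).

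*G6pc* (ENSMUSG00000078650.2, chromosome 11, 101367561 to 101377903, plus strand) had the largest fall of the 7 genes. It ran from 502 to 1774 CPM in UNT (median 1135), from 22.9 to 273 CPM in PBS (median 78.3) and from 87.6 to 329 CPM in RGLS4326 kidneys (median 227). The log2 fold change of PBS against UNT was -3.28 (SE 0.34, adjusted p = 5.29e-11), and -2.18 (adjusted p = 0.012) when the percentage of reads lacking a unique alignment was a covariate. Its partner *Slc37a4* (ENSMUSG00000032114.9, chromosome 9, 44396852 to 44402968, plus strand) ran from 308.5 to 516 CPM in UNT, from 43.0 to 168 CPM in PBS and from 59.8 to 149 CPM in RGLS4326 kidneys, with a log2 fold change in disease of -2.25 (SE 0.17, adjusted p = 2.38e-14).

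*Khk* (ENSMUSG00000029162.15, chromosome 5, 30921431 to 30931248, plus strand) ran from 463 to 661 CPM in UNT (median 513), from 47.1 to 187 CPM in PBS (median 106) and from 66.6 to 143 CPM in RGLS4326 kidneys (median 112). The log2 fold change of the fructose kinase in disease was -2.51 (SE 0.18, adjusted p = 2.43e-15). The highest PBS mouse for *Khk*, *Pck1*, *Pcx*, *Fbp1* and *Slc37a4* was the same animal, PBS replicate 7.

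RGLS4326 was next compared with PBS in *Pkd2*-KO mice. *G6pc* rose from 109 ± 82.1 to 221 ± 83.8 CPM, *Fbp1* rose from 212 ± 78.7 to 284 ± 75.4 CPM, and *Pck2* fell from 49.9 ± 5.84 to 43.6 ± 6.07 CPM. These 3 of the 7 genes were called, beside 33.8% of all tested genes (15.3% higher and 18.5% lower), so the count of calls was near the background. The groups overlapped for every member, and of all tested genes 0.0447% were higher and 0.0192% lower without overlap. The median log2 fold change of the 7 genes was 0.32, beside 0.00 over all tested genes.

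*G6pc* had the largest difference, a log2 fold change of 1.01 (SE 0.32, 2.02-fold, adjusted p = 0.0161), and 81 of 15644 genes had a higher value. Of the RGLS4326 mice, 10 of 11 were above the PBS mean and 4 were above the highest PBS mouse. The *G6pc* call held in each of the 34 fits that left out 1 library, with an adjusted p between 0.003 and 0.0307. *Fbp1* differed by 0.43 (SE 0.16, adjusted p = 0.0401), with 9 of 11 RGLS4326 mice above the PBS mean, and lost its call in 10 of these 34 fits and with the numbering series as a term (0.41, adjusted p = 0.051). *Pck2* differed by -0.19 (SE 0.07, adjusted p = 0.0351), with 8 of 11 mice below the PBS mean, and lost its call in 9 of them.

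The other members did not pass the test. *Pck1* differed by 0.65 with a 95% interval from 0.02 to 1.27 (SE 0.31, unadjusted p = 0.042, adjusted p = 0.095), although 10 of 11 RGLS4326 mice were above the PBS mean. The differences were 0.32 for *Pcx* (95% interval 0.02 to 0.63, adjusted p = 0.0905), 0.31 for *Slc37a4* (-0.03 to 0.64, adjusted p = 0.147) and 0.19 for *Khk* (-0.15 to 0.54, adjusted p = 0.377). PBS replicates 5 and 7 bore on these values. Without PBS replicate 7, 6 of the 7 members were called, *Pck1* at 0.95 (adjusted p = 0.0115), *Slc37a4* at 0.46 (0.0162) and *Pcx* at 0.43 (0.0176) among them, and without PBS replicate 5, 5 were called, with *Pck1* at 0.77 (adjusted p = 0.0468). In these fits 37.3% and 39.6% of all tested genes were called. Leaving out PBS replicate 3, 4 or 11 or RGLS4326 replicate 6 or 11 left 1 call, beside 25.6% to 31.1% of all tested genes. With only PBS and RGLS4326 libraries in the fit, *G6pc* was the 1 member called, beside 29.2% of all tested genes. Once the percentage of reads outside genes was a covariate no member was called, beside 0.569% of all tested genes, with *G6pc* at 0.92 (adjusted p = 0.135), *Fbp1* at 0.45 (0.169) and *Pck2* at -0.066 (0.574).

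**Figure D3:**
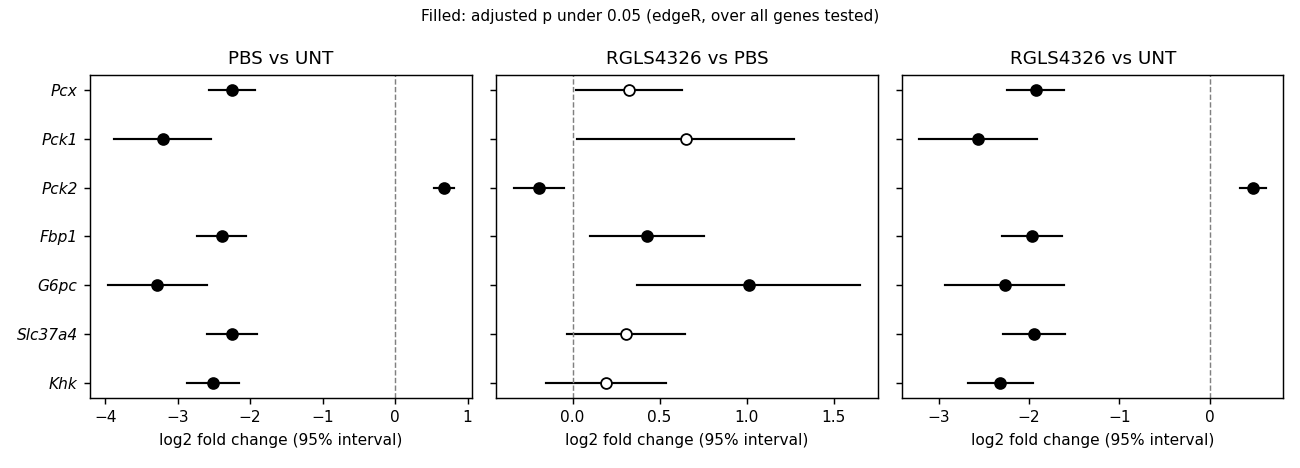
Log2 fold change with its 95% interval for each gene in the 3 comparisons, filled where the adjusted p was under 0.05. Disease differences lie between -3.28 and 0.67, and the treatment differences, on their own narrower axis, lie between -0.19 and 1.01 with 3 filled points.

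The treatment differences are given next within each numbering series, and whether they differ between the series was not tested. In series 1, *G6pc* stood at 65.7 ± 36.5 CPM in 3 PBS mice and 261 ± 71.1 CPM in 4 RGLS4326 mice, and in series 3 at 104 ± 39.2 and 249.6 ± 69.2 CPM in 4 mice each. In series 2 it stood at 147 ± 127 CPM in 4 PBS mice and 128 ± 51.7 CPM in 3 RGLS4326 mice. These 3 RGLS4326 libraries had 11.3% to 12.0% of their reads outside genes, beside 5.49% to 9.0% in the PBS libraries of series 2 and 4.94% to 8.92% in the other RGLS4326 libraries except replicate 11 (11.7%), and the part of this share in the series 2 values was not tested. *Pck1* followed the same pattern, with log2 differences of 1.85, -0.54 and 0.90 in series 1, 2 and 3. In series 2 alone, the differences of *G6pc* (-0.19), *Fbp1* (-0.03), *Khk* (-0.35), *Pcx* (-0.19) and *Slc37a4* (-0.43) were negative too, with SE from 0.30 (*Pcx*) to 0.68 (*G6pc*). None of the 7 was called there, beside 25.5% of all tested genes. Members other than *Pck2* went together across mice (r from 0.71 to 0.94), so their signs are not independent. PBS replicates 5 and 7 both belong to series 2. The *Pck1* to *Pck2* log2 ratio was higher after RGLS4326 by 1.09 over all mice (two-sided permutation test, p = 0.0144), by 2.22 in series 1, by 0.08 in series 2 and by 1.06 in series 3. The disease differences of all 7 genes kept their direction within each of the 3 series.

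**Figure D4:**
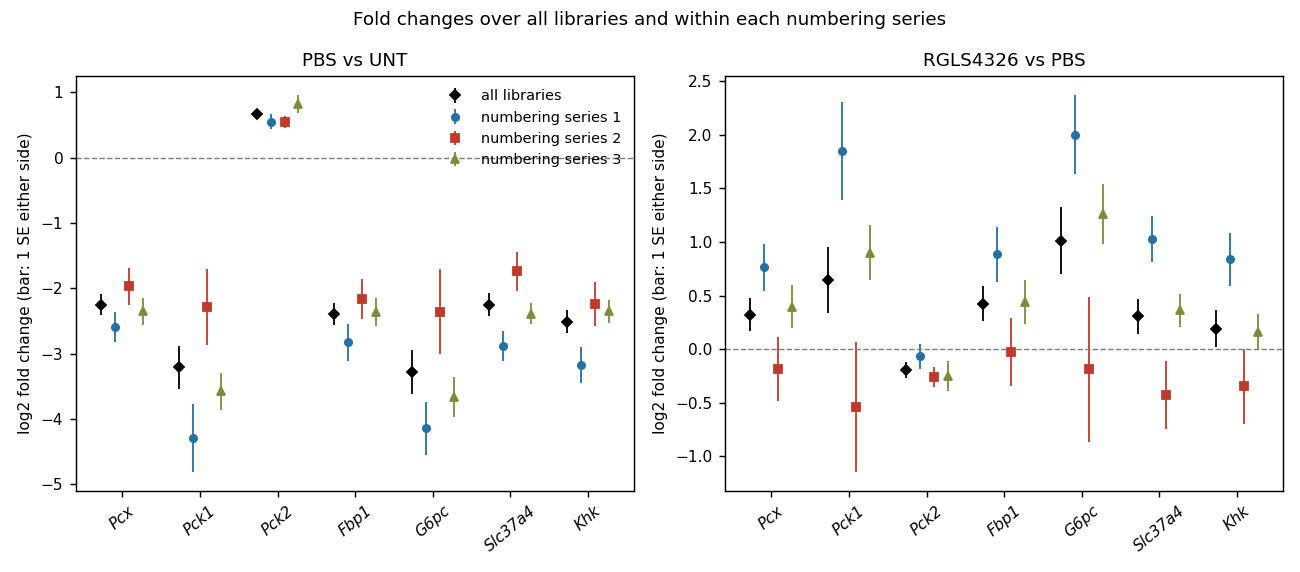
Log2 fold changes of the 7 genes with 1 SE either side, over all libraries and within each numbering series, for PBS vs UNT and for RGLS4326 vs PBS. The series agree in direction for disease, whereas for treatment the points of series 2 lie below 0 for all 7 genes.

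Against UNT, RGLS4326-treated kidneys remained lower in 6 members and higher in *Pck2*, all called, where 77.7% of all tested genes were (36.9% lower and 40.8% higher). The log2 differences were -2.56 for *Pck1*, -2.27 for *G6pc*, -2.32 for *Khk*, -1.97 for *Fbp1*, -1.95 for *Slc37a4* and -1.93 for *Pcx*, with adjusted p between 2.34e-14 and 8.77e-08, and 0.48 for *Pck2* (adjusted p = 1.47e-07). With the percentage of reads lacking a unique alignment as a covariate, *G6pc* at -1.07 (adjusted p = 0.25) and *Pck2* at 0.16 (adjusted p = 0.435) were no longer called. In this fit 46.8% of all tested genes were called, and the SE of *G6pc* went from 0.32 to 0.76. The covariate did not overlap between RGLS4326 and UNT, so the fit cannot separate it from the group. *Pck2* alone overlapped between these groups, and of all tested genes 16.1% were lower and 20.7% higher without overlap. PBS and RGLS4326 were each set against the same 12 UNT mice.

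Levels of different genes were compared per kilobase of annotated exon. UNT kidneys held *Pck1* at 1527 CPM per kb, *Fbp1* at 654, *G6pc* at 440, *Khk* at 298, *Pcx* at 145, *Slc37a4* at 139 and *Pck2* at 4.01. In this order, *Pck1* and *Fbp1*, *Khk* and *Pcx*, and *Slc37a4* and *Pck2* did not overlap, while *Fbp1* and *G6pc*, *G6pc* and *Khk*, and *Pcx* and *Slc37a4* did. In PBS-treated kidneys *Pck1* still led at 165 CPM per kb, ahead of *Fbp1* at 124, but only in 7 of 11 mice, and every pair of neighbours except *Slc37a4* and *Pck2* overlapped. In RGLS4326-treated kidneys *Pck1* was at 259 and *Fbp1* at 167 CPM per kb, and *Pck1* was the higher in 10 of 11 mice. The exon length of *Pck2* includes retained introns, and per kilobase of its longest coding transcript *Pck2* was at 6.76 in UNT, still the lowest of the 7.

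Since renal gluconeogenesis is known from the proximal tubule, 10 markers of that segment were measured beside the 7 genes (*Lrp2*, *Cubn*, *Slc34a1*, *Slc5a2*, *Slc22a6*, *Slc22a8*, *Slc13a3*, *Miox*, *Gatm* and *Slc27a2*). All 10 fell in PBS against UNT, with a median log2 fold change of -2.82, and 6 of 10 rose after RGLS4326, with a median of 0.62, where 39.0% of all tested genes were called lower in the first comparison and 15.3% higher in the second. Their summed level was 15115 to 20097 CPM in UNT, 1265 to 4615 CPM in PBS and 2864 to 4999 CPM in RGLS4326 kidneys, and none was at 0. The mean over the markers, on log2(CPM + 1), was 10.4 ± 0.12 in UNT, 7.39 ± 0.73 in PBS and 8.10 ± 0.27 in RGLS4326.

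Relative to this marker mean within each mouse, the 6 genes that fell lay on either side of it. The markers themselves differed in disease by -2.13 (*Cubn*) to -3.64 (*Miox*), a span that holds the falls of all 6 genes. The sign of each offset therefore depends on which markers were averaged. *Pck1* and *G6pc* were lower in PBS than in UNT by a further 0.53 and 0.55 (log2), and their ranges overlapped. *Fbp1*, *Khk*, *Pcx* and *Slc37a4* were higher relative to the markers in PBS, by 0.49, 0.37, 0.66 and 0.65, without overlap for *Fbp1* and *Pcx*. The share of all tested genes without overlap on this scale was not computed. *Pck2* was higher by 3.63 without overlap, mostly through the markers. Its own difference on log2(CPM + 1) was 0.65, and the marker mean itself differed by -2.97 without overlap. After RGLS4326 the marker mean was higher by 0.71, and the mean treatment difference on log2(CPM + 1) was 1.25 for *G6pc* and 0.90 for *Pck1*. Relative to the markers these differences were 0.55 and 0.19, whereas those of *Fbp1* (-0.23), *Khk* (-0.43), *Pcx* (-0.33) and *Slc37a4* (-0.34) were negative, and all overlapped. These values are descriptions with no test, and the part of the marker level in the results was not tested.

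Across mice, after the group means were subtracted, the marker mean was correlated with *Fbp1* (Pearson r = 0.93), *Khk* (0.91), *Pcx* (0.90), *Pck1* (0.83), *Slc37a4* (0.83) and *G6pc* (0.77), and with *Pck2* at -0.30, over 34 mice that share libraries and scaling. For the genes other than *Pck2*, r ran from 0.83 to 0.97 within PBS, 0.71 to 0.92 within RGLS4326 and 0.59 to 0.81 within UNT. PBS replicates 4, 2 and 3 had the lowest marker means of all mice (6.23, 6.40 and 6.58), and these 3 mice were below every RGLS4326 mouse for *Pcx*, *Pck1*, *Fbp1*, *G6pc*, *Slc37a4* and *Khk*. PBS replicates 7 and 5 had the highest marker means of the PBS group, 8.36 and 8.06. In numbering series 2, where the differences of the 6 genes were negative, the marker mean was 7.57 ± 0.94 in 4 PBS mice and 7.91 ± 0.29 in 3 RGLS4326 mice.

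**Figure D5:**
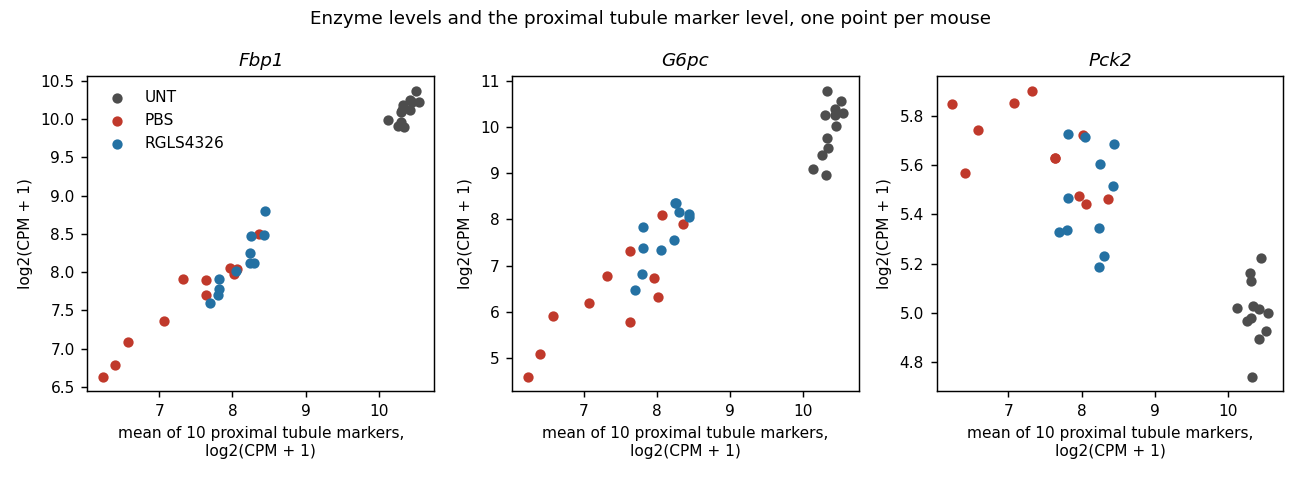
Level of *Fbp1*, *G6pc* and *Pck2*, on log2(CPM + 1), against the mean of 10 proximal tubule markers on the same scale, with a point for each of 34 mice. *Fbp1* and *G6pc* rise along the axis within the PBS group (r = 0.97 and 0.83, n = 11), and *Pck2* does not (r = -0.58). The r of *Pck2* was -0.03 within UNT and 0.03 within RGLS4326.

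Markers of other cell types moved as well. From UNT to PBS, where 43.1% of all tested genes were called higher and 39.0% lower, all 4 macrophage markers (summed 69.5 to 125 and 350 to 883 CPM), all 4 fibroblast markers (380 to 981 and 2259 to 4861 CPM) and all 4 injured tubule markers (138 to 187 and 1293 to 2782 CPM) rose, none of them at 0 in any group, and their part in the higher *Pck2* and lower enzyme levels was not tested. The 5 collecting duct markers rose and all 4 distal convoluted tubule and all 4 intercalated cell markers fell. Of 4 markers each, the thick ascending limb had 3 lower and 1 higher, podocytes 3 lower and 1 higher, and endothelium 2 and 2, while adipose had 3 higher. After RGLS4326, 4 of 5 collecting duct markers and 2 of 4 each of the macrophage, injured tubule and adipose markers fell, among them *Cd68* (-0.80, adjusted p = 0.00258), *Lcn2* (-0.80, 0.005) and *Cfd* (-1.58, 0.00165), named after their values were seen. In the same comparison, 3 podocyte, 3 endothelial, 2 distal convoluted tubule, 2 thick ascending limb and 2 liver markers rose, 1 thick ascending limb marker fell, and no fibroblast or intercalated cell marker was called, where 18.5% of all tested genes were called lower and 15.3% higher. From PBS to RGLS4326 kidneys the summed levels were 843 to 2313 and 440.4 to 1994 CPM for collecting duct, 350 to 883 and 335 to 644 CPM for macrophage, 1293 to 2782 and 801 to 2075 CPM for injured tubule, and 86.4 to 395 and 49.2 to 138 CPM for adipose markers. Their part in the treatment differences of *G6pc*, *Fbp1* and *Pck2* was not tested. Of 5 markers of liver, the other organ rich in these enzymes, 1 was higher and 3 were lower in PBS, their summed level was 36.1 to 170 CPM in UNT, 19.6 to 83.7 CPM in PBS and 32.4 to 120.4 CPM in RGLS4326 kidneys, and their part in the results was not tested.

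Counts in the pathway lists that follow stand beside the same shares of all tested genes. Of 8 other genes of the fructose and polyol route, 7 were lower and 1 higher in PBS than in UNT, with a median log2 fold change of -1.97. Among the largest falls were those of *Sord* (-2.29), which makes fructose from sorbitol, and *Slc2a5* (-2.12), a fructose transporter. The higher gene was the aldose reductase gene *Akr1b3*, at only 0.24 ± 0.07 CPM in UNT and 0.52 ± 0.18 CPM in PBS, with as few as 4 counts in a library (adjusted p = 4.94e-06). After RGLS4326, 3 of the 8 rose, *Slc2a2* (0.55, adjusted p = 0.0172), the basolateral glucose and fructose transporter, *Glyctk* (0.50, 0.00549), which phosphorylates glycerate, and *Sord* (0.40, 0.0384).

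Genes that bring substrate into gluconeogenesis showed 16 of 17 lower and none higher in PBS, with a median of -1.32. The exception, named after its value was seen, was *Ldha* (0.05, adjusted p = 0.565), the lactate dehydrogenase subunit favoring lactate. Glycerol kinase, *Gyk* (-2.67), and the lactate transporters *Slc5a8* (-2.59) and *Slc5a12* (-2.39) fell most. After RGLS4326, these 3 of 17 were called, all higher, a share near the 15.3% of all tested genes, with *Slc5a12* at 0.90 (adjusted p = 0.00402), *Gyk* at 0.75 (0.0179) and *Slc5a8* at 0.70 (0.031). The other 14, amino acid and malate enzymes and pyruvate carriers among them, were not called, and the list's median treatment difference was 0.13.

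Among 17 regulators of gluconeogenic genes, 13 were lower and 2 higher in PBS, with a median of -0.70. The glucose-sensing factor *Mlxipl* (-2.60), the fasting-induced factor *Klf15* (-2.07) and the fatty acid receptor *Ppara* (-1.62) fell most. *Irs2* (0.57), an insulin receptor substrate, and *Cebpb* (0.52) rose. After RGLS4326, 7 of the 17 rose, namely *Ppara* (0.61), *Mlxipl* (0.57), the coactivator *Ppargc1a* (0.53), the glucocorticoid receptor *Nr3c1* (0.41), *Creb1* (0.30), *Irs1* (0.30) and the insulin receptor *Insr* (0.27), with adjusted p from 0.00338 to 0.0339, and *Cebpa* fell (-0.37, adjusted p = 0.00699). Of the paralogs, *Fbp2* (-0.37) and *G6pc2* (-2.10, under 1 CPM in the mean of every group) fell in disease, and the widely expressed *G6pc3* was at -0.12 (adjusted p = 0.122). *G6pc3* fell after RGLS4326 by 0.28 on the log2 scale (adjusted p = 0.00652), while *G6pc* rose.

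Of 12 tested enzymes of the opposing glycolytic steps, 8 rose and 3 fell in PBS, with a median of 0.44. The hexokinases *Hk3* (3.28), *Hk2* (1.36) and *Hk1* (0.65) rose most, and *Pfkfb2* (-1.24), *Pfkm* (-0.83) and the liver and proximal tubule pyruvate kinase *Pklr* (-0.46) fell. *Hk3* averaged 0.50 ± 0.19 CPM in healthy mice and 5.01 ± 1.66 CPM in PBS-treated ones. After RGLS4326, *Pfkfb2* rose (0.45, adjusted p = 0.00885) and 6 fell, *Pkm* (-0.44), *Hk1* (-0.32), *Pfkl* (-0.29), *Pfkfb4* (-0.22), *Pfkfb3* (-0.21) and *Pfkp* (-0.18), with adjusted p from 0.003 to 0.03. Exons of *Gyk*, *Glyctk*, *Mlxipl*, *Irs1*, *Irs2*, *Cebpa*, *Cebpb*, *Hk1*, *Hk3*, *Pfkfb2*, *Pfkm*, *Pfkp*, *Pklr* and *Pkm* overlap another annotated gene, so the counts of these genes are uncertain.

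Genes whose levels were among those most like each member were listed by Pearson r after the group means were subtracted, over all 34 mice. *Pck1* was most like *Adtrp* (0.90), *Cyp4a10* (0.89) and *Cyp4a14* (0.89), and *G6pc* most like *Adtrp* (0.90), *Slc22a5* (0.89) and *Pck1* (0.88). Among the genes likest to *Fbp1* were *Khk* (0.94) and BC026585 (0.93), and among those likest to *Khk* were BC026585 (0.95) and *Fbp1* (0.94). *Pcx* was most like the phosphate transporter *Slc34a1* (0.91), *Mep1a* (0.91) and *Susd2* (0.90), and among the genes likest to *Slc37a4* were *Car14* (0.92) and *Slc19a1* (0.90). *Pck2* had a different set, *Bin3* (0.89), *Mapk3* (0.87) and *Zfp580* (0.87), and its r with the other members ran from -0.29 to -0.09, against 0.71 to 0.94 among the other 6. Exons of *Bin3*, *Car14* and *Slc34a1* overlap another annotated gene.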

How the data were processed

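Kidney RNA of 34 mice was sequenced as paired 75-base reads from stranded mRNA libraries. The authors trimmed the reads with Trim Galore, mapped them with STAR to GRCm38 (mm10) and counted uniquely mapped reads per gene with HTSeq 0.6.1 (version from the submitters' processing notes), and the deposited values are these raw counts, 1 table per mouse. The annotation and the strand setting of the counting are not given in the sources used here. Lines of reads in no gene, ambiguous or without a unique alignment made up 20.5% to 36.2% of the reads and were left out of library sizes.

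Groups followed the labels. Counts were tested with edgeR 4.0.16 (R 4.3.3), with TMM scaling, filterByExpr and the quasi-likelihood test on 1 fit of all 34 libraries with 3 groups, and p-values were adjusted over 15644 genes. The procedure was tested on simulated data. The *Pck1* to *Pck2* ratio used a pseudocount of 1 and two-sided permutation tests. Gene positions, exon lengths and 3′UTRs came from GENCODE M21, and microRNAs and promoters from RefSeq tables. Symbols listed as *Tkfc*, *Gk* and *Adgre1* were found as *Dak*, *Gyk* and *Emr1*. Named genes were all 7 members in every comparison, up to 3 called genes of largest change in each direction of disease and all treatment calls from 5 pathway lists, and the 3 likest genes of each member, and a few genes that this rule names are not reported here. Members and lists were chosen with earlier results of these data known. Alternatives were other scaling factors, DESeq2 1.42.0, no filter, other covariates, series, blocks and samples. The length of the longest coding transcript was added after seeing the data. Each mouse gave 1 library, so p-values measure the spread between these mice.

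For same-numbered mice of different groups, correlations of their deviations from the group means ran from -0.42 to 0.45. Between RGLS4326 and PBS the median was 0.05, and 5 of 11 pairs were over 0.1. The labels do not tie the numbers to a litter or day, so mice were not paired.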

Additional observations from a re-analysis of the deposited data

How the results depend on the processing

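The disease differences of the 6 lower genes kept their direction and call in every alternative run. Member calls after treatment fell to 0 within numbering series 2 and 3, where each group had only 3 or 4 mice. They also fell to 0 with the percentage of reads outside genes as a covariate over all libraries. Over the fits without 1 library, treatment differences ran from 0.54 to 0.95 for *Pck1*, -0.22 to -0.16 for *Pck2*, 0.90 to 1.25 for *G6pc*, 0.34 to 0.53 for *Fbp1*, 0.12 to 0.34 for *Khk*, 0.26 to 0.43 for *Pcx* and 0.24 to 0.46 for *Slc37a4* (log2), with 1 to 6 members and 4023 to 6209 genes called, and 7 members were called in disease and in RGLS4326 vs UNT in all of them. Numbering series 1 alone gave 54 genes and 1 member called after treatment, with *Pck2* at -0.067 and *Fbp1* at 0.89 not called. Series 2 alone gave 4065 genes (25.5% of those tested) and 0 members, with *Pck1* at -0.54, *Pck2* at -0.26, *G6pc* at -0.19, *Fbp1* at -0.028, *Khk* at -0.35, *Pcx* at -0.19 and *Slc37a4* at -0.43. Series 3 alone gave 0 members and 0 genes by edgeR (2826 had an unadjusted p under 0.05), leaving *Pck2* at -0.25, *G6pc* at 1.26 and *Fbp1* at 0.44. With the series as a term, *Fbp1* was at 0.41 (adjusted p = 0.051). When each library's percentage of reads outside genes entered as a covariate, 89 genes and 0 members were called, with *Pck2* at -0.066, *G6pc* at 0.92 and *Fbp1* at 0.45. With only the 2 groups of the comparison, 4445 genes and 1 member were called, with *Pck2* at -0.19 and *Fbp1* at 0.43. A covariate for reads that did not align uniquely left 7338 genes in disease, *Pck2* at 0.37 (adjusted p = 0.0541), and 7316 genes in RGLS4326 vs UNT, *Pck2* at 0.16 and *G6pc* at -1.07. This covariate did not overlap between UNT and either *Pkd2*-KO group, so these fits cannot separate it from the group. The *Pck1* to *Pck2* log2 ratio differed by -5.14 in disease, 2.22 after treatment and -2.93 for RGLS4326 vs UNT in series 1 (exact permutation tests, adjusted p = 0.0571 each), and by -3.17, 0.084 and -3.09 in series 2 (adjusted p = 0.0857, 1.0 and 0.0857), where a test of 3 against 4 mice cannot go below 0.0571. Per kilobase of the longest coding transcript, a length chosen after seeing the data, *Slc37a4* moved to position 5 and *Pcx* to position 6 in all groups. The cause of these shifts was not tested.

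The fits with the replicate number as a block changed no call of a member and gave 12781, 5098 and 12162 genes for PBS vs UNT, RGLS4326 vs PBS and RGLS4326 vs UNT, with *G6pc* at 1.18 (adjusted p = 0.0227) and the ratio at 1.09 (sign-flip permutation, adjusted p = 0.0469) after treatment. The labels do not say whether the numbers pair the mice. Counts in a library went as low as 2 for *G6pc2* and 4 for *Akr1b3*, beside 559 for the 7 genes, and the effect of depth was not tested.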
